A study of Mus musculus with 9 samples.

Results

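The genes described here are 8 apoptotic caspases and their regulators, namely Fadd, Casp8, Cflar, Apaf1, Casp9, Casp2, Casp6 and Xiap. They were chosen by name, without use of their values but with earlier results of these data known. All 8 were found among the 16921 gene identifiers measured. RiboSeq, which counts the ribosome-protected fragments (footprints) that map to each gene, was performed on TTP-deficient bone marrow-derived macrophages (BMDMs) of the mouse. The primary cells had been immortalized with the oncogenes hcmyc and hRasG12V, and were positive for the macrophage proteins CD11b and F4/80. They were transduced separately with all-in-one tet-inducible vectors for GFP, GFP-TTP or GFP-TTP-AA, so that each condition was 1 sorted cell line. TTP-AA is a mutant that the kinase MK2 cannot phosphorylate, and of TTP the vectors held only the coding sequence. All cells, the GFP controls included, were derived from macrophages labelled as TTP-deficient and received doxycycline at 1 µg/ml for 6 h and LPS at 1 µg/ml for 1 h. Each condition had 3 libraries, numbered 1, 2 and 3, and the comparisons ask how footprints on these mRNAs differ with TTP and with TTP that cannot be phosphorylated at the MK2 sites.

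Caspases are proteases that are made as inactive precursors and cleave other proteins after aspartate residues. In the death receptor pathway the adaptor Fadd brings caspase-8 to receptors such as Fas, where Cflar (c-FLIP), a relative of caspase-8 without protease activity, holds it back. In the mitochondrial pathway cytochrome c binds Apaf1, which forms the apoptosome and activates caspase-9, while Xiap binds and blocks active caspases. In macrophages LPS signals through NF-κB, which raises transcription of survival genes such as Cflar, and caspase-8 keeps a necrotic form of death in check. TTP binds AU-rich elements in 3′UTRs and recruits enzymes that shorten the poly(A) tail of the mRNA.

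The words ATTTA and TATTTAT, which TTP is known to favour, were searched on the transcript strand of the longest annotated 3′UTR of each gene (GENCODE vM21 on GRCm38). Each TATTTAT holds an ATTTA, so that the counts of both words overlap. Of the 9936 genes above the filter with an annotated 3′UTR, 70.6% held ATTTA and 30.6% held TATTTAT, with a median length of 1173 nt. All 8 genes held ATTTA, but TATTTAT was found only in Cflar, Casp9 and Apaf1. Among genes with a 3′UTR within 1.25 times the length, 52.8% held ATTTA for Casp6, 66.4% for Casp8 and 91.2% to 99.7% for the others. Casp6 and Casp8 held 3 ATTTA each, where the medians of these genes were 1. Apaf1 held 3 at a median of 3. Casp2, Casp9 and Fadd held 2 each, below medians of 3, 4 and 5. The 3′UTR of Cflar (4962 nt) held 13 ATTTA and 6 TATTTAT, where the 613 genes with a 3′UTR within 1.25 times its length had a median of 8 and 1, and 64.8% of them held TATTTAT. The 3′UTR of Xiap is of like length (4672 nt) and held 16 ATTTA but 0 TATTTAT, whereas 63.1% of the 721 genes of its length class held the longer word. The TATTTAT sites are printed in 5′ to 3′ direction of the mRNA, written as DNA with the word in capitals, because they are the letters by which Cflar, Casp9 and Apaf1 differ from the other 5 genes. Site 3 of Cflar overlaps another TATTTAT that starts 4 bases further on.
Casp9 (chr4:141814299-141814327, plus strand): cttgagaacatTATTTATtcttcaacaat
Apaf1 (chr10:90989394-90989422, minus strand): agacttttttgTATTTATaatttccatga
Cflar site 1 (chr1:58754883-58754911, plus strand): tgagggtccagTATTTATagtgcaccaga
Cflar site 2 (chr1:58755186-58755214, plus strand): gtgagattactTATTTATaatttatatag
Cflar site 3 (chr1:58755237-58755265, plus strand): caaatagaattTATTTATttattaaatac
Cflar site 4 (chr1:58757816-58757844, plus strand): agtttgctctgTATTTATtgaatatacta
Cflar site 5 (chr1:58757880-58757908, plus strand): atatataaaaaTATTTATtggaggtaaaa

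**Figure D1:**
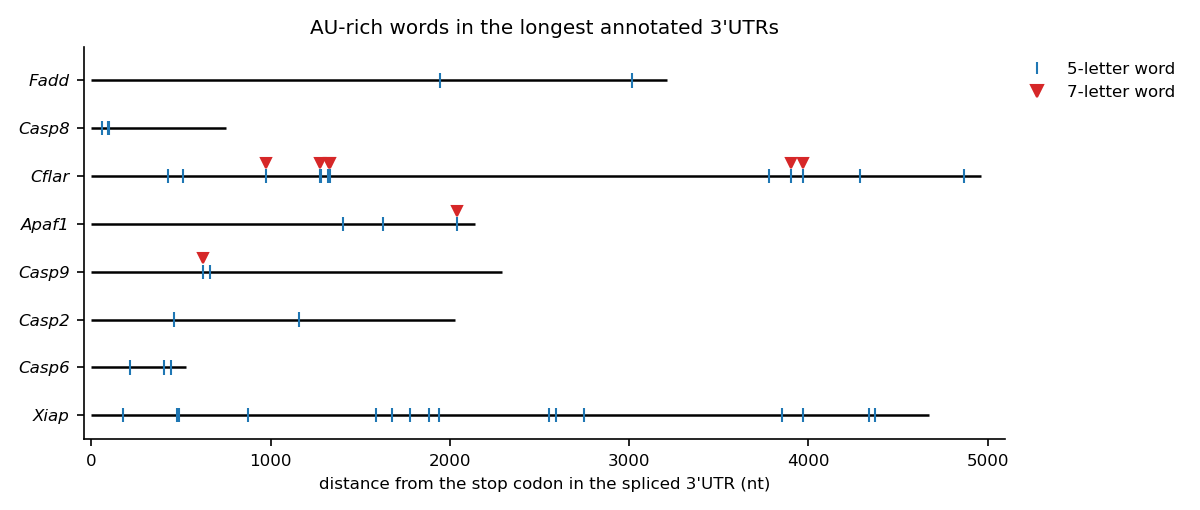
Positions of ATTTA (5-letter word, blue ticks) and TATTTAT (7-letter word, red triangles) along the longest annotated 3′UTR of each gene, drawn as a line from the stop codon (nt). Cflar carries all but 2 of the TATTTAT words, between 972 and 3969 nt from the stop codon, and 2 of its 6 overlap and show as 1 triangle. Xiap holds 16 ATTTA and no TATTTAT.

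The deposited values are not observed counts. They are the means that the authors' model fitted for each gene and library, so that the spread between replicates cannot be measured from them. After division by the size factor of the library they are called normalised fitted values, and the geometric mean over the 3 libraries of a condition is called the level. Within each gene the replicate numbers keep nearly the same ratios in every condition by construction of the model. A direction shared by the 3 libraries therefore adds no evidence. Whether the values of conditions overlap follows from the fitted terms as well, and adds none either. Differences between conditions are log2 differences of levels, given with the standard error (SE) deposited by the authors for that comparison and a 95% interval. The p-values come from a two-sided Wald test with Benjamini-Hochberg adjustment over all tested genes, and a gene was called at an adjusted p below 0.05. Both the differences and the errors had been shrunken towards 0 by the authors' model.

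The footprints on Zfp36, the gene of TTP, served as a check of the labels. Its level was 460 with GFP, 929 with wild-type TTP and 1530 with the mutant. Zfp36 was thus not free of footprints in the GFP cells, where its level was above that of all 8 genes but Casp8, although these cells are labelled TTP-deficient. Where in the gene these footprints lie cannot be seen in values per gene. Footprints on Zfp36 were also more abundant with the mutant than with wild-type TTP, by 0.72 on the log2 scale (adjusted p = 0.0427). All 7 macrophage markers were measured in each condition at levels of 2297 to 71117, but they did not share an order of the conditions. Emr1, which encodes F4/80, was at 3672, 2297 and 5321 in GFP, GFP-TTP and GFP-TTP-AA. Csf1r, Cd68 and Lyz2 were likewise lowest in GFP-TTP and highest in GFP-TTP-AA. Ptprc went the other way, at 3340, 4128 and 3023. Itgam (2975, 3197 and 3177) and Cd14 (9561, 10319 and 11873) were lowest in GFP. Of 9 markers of T cells, B cells, neutrophils, fibroblasts and epithelium, 4 were listed, at 0.315 to 55.7, and the B cell and fibroblast markers Cd79a, Col1a1 and Col1a2 were all below 1. The summed level of these 4 was 28.6, 27.2 and 57.2 in the 3 conditions, almost all of it S100a8, and its part in the results was not tested. Library size factors ranged from 0.416 to 2.14, with fitted totals of 2570292 to 12804501 per library.

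Casp6, which was lower with GFP-TTP than with GFP, was the only gene of the 8 that was called in any comparison, and the other 7 had log2 differences between -0.18 and 0.57. All 8 passed the filter on low values (a fitted mean of at least 10, passed by 10103 genes). In GFP-TTP against GFP 1 of 8 genes was called, against 2.09% of all 9938 tested genes. In GFP-TTP-AA against GFP it was 0 of 8, against 3.11% of 10103, and at an unadjusted p below 0.05 it was also 0 of 8, against 14.2%. In GFP-TTP-AA against GFP-TTP it was 0 of 8, against 10.3% of 10103, and 2 of 8 (Cflar and Casp6) at an unadjusted p below 0.05, against 22.2%. The corresponding unadjusted count in GFP-TTP against GFP was 1 of 8, against 11.3%. With only 8 genes such shares are coarse.

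The signs of the differences were nonetheless uneven. The level was lowest in GFP-TTP for 8 of 8 genes, an order found in 35.2% of the 10103 genes, and highest in GFP-TTP-AA for 7 of 8 genes, which held for 36.2%. The median log2 difference of the 8 genes was -0.08 for GFP-TTP against GFP, 0.10 for GFP-TTP-AA against GFP and 0.22 for GFP-TTP-AA against GFP-TTP, while the medians of all tested genes were 0.0031, -0.0041 and -0.0050. The 3 comparisons share libraries, so these values are not independent of each other. For Casp2 and Apaf1 the signs against GFP-TTP turned when the median of their chromosome was subtracted, with values given beside those genes.

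**Figure D2:**
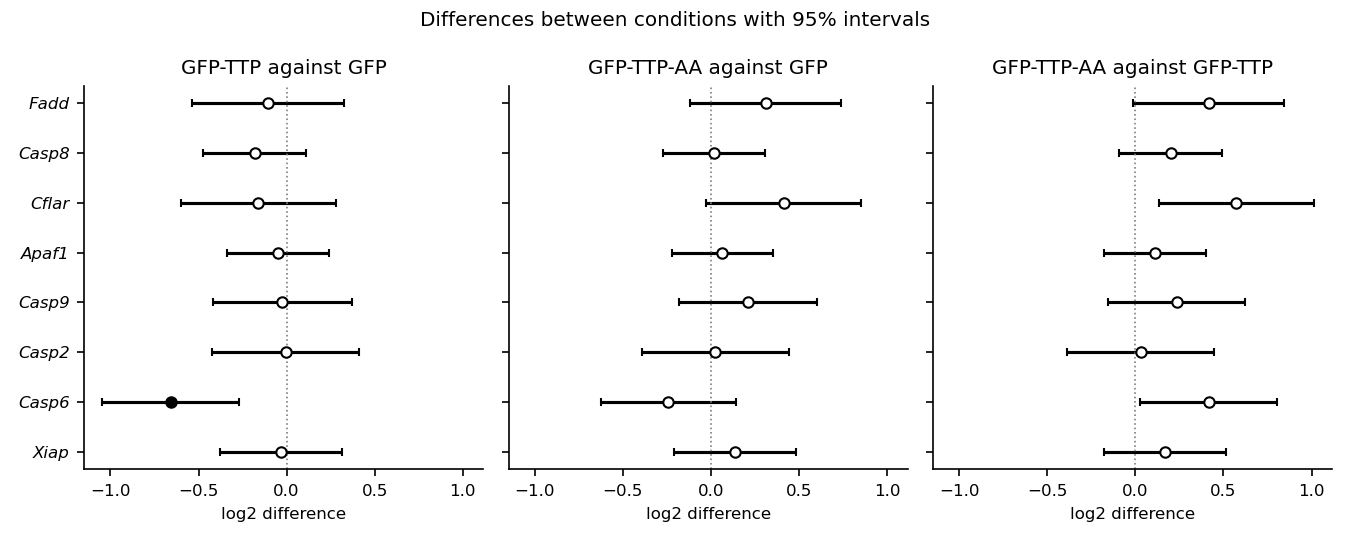
Log2 differences (x axis) of the 8 genes in the 3 comparisons, with 95% intervals from the deposited standard errors as bars and filled points for an adjusted p below 0.05. Casp6 in GFP-TTP against GFP is the only filled point, and all 8 points lie below 0 in GFP-TTP against GFP and above 0 in GFP-TTP-AA against GFP-TTP, though Casp2 and Apaf1 change side in both once the median of their chromosome is subtracted.

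Casp6 encodes caspase-6, an executioner caspase known for cleaving nuclear lamins (chr3:129901425-129914103, plus strand). Its normalised fitted values were 145.5, 157.2 and 134.9 in the GFP libraries, 92.1, 99.7 and 85.4 in GFP-TTP, and 123.8, 132.5 and 113.8 in GFP-TTP-AA. The level was highest in GFP, lowest in GFP-TTP and between them in GFP-TTP-AA. The level of Casp6 fell by 0.66 on the log2 scale in GFP-TTP against GFP (SE 0.20, interval -1.05 to -0.27, adjusted p = 0.0434), that is, it fell by 36.7%. In such bulk libraries fewer cells that use a gene and less of its RNA or translation per cell cannot be told apart. In GFP-TTP-AA against GFP the difference was -0.24 (interval -0.62 to 0.14, adjusted p = 0.658). In GFP-TTP-AA against GFP-TTP it was 0.42 (interval 0.03 to 0.81, adjusted p = 0.184).

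The call of Casp6 in GFP-TTP against GFP was close to the threshold, and it was lost when the median of its chromosome was subtracted. The 467 tested genes of chromosome 3 had a median log2 difference of -0.18 in this comparison. With that median subtracted the difference of Casp6 was -0.48 (adjusted p = 0.303). All 7 tested neighbours within 1 Mb of Casp6 had negative differences in GFP-TTP against GFP, with a median of -0.21, and all 7 had positive ones in GFP-TTP-AA against GFP-TTP, with a median of 0.13. In GFP-TTP-AA against GFP, where Casp6 was negative, 4 neighbours were positive and 3 negative, with a median of 0.05. What the chromosome and the neighbours contribute to the value of Casp6 was not tested. The call was also lost under a t reference with 4 degrees of freedom, which allows for the small number of libraries (adjusted p = 0.925). With it 0 genes of all were called in any comparison, so that this setting does not set Casp6 apart from other genes.

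Over the 9 libraries the genes with the pattern most like that of Casp6 were Slc8a1, Gatm and Tcp11l2, with root mean square distances of 0.062, 0.067 and 0.070 on the log2 scale. They were picked for this likeness, so that their differences between conditions resemble those of Casp6 by choice.

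Cflar, the inhibitor of caspase-8, had the largest differences of the 8 genes in both comparisons of GFP-TTP-AA, but none was called. Its normalised fitted values were 213.8, 260.0 and 414.6 in GFP, 191.0, 232.7 and 370.5 in GFP-TTP, and 286.1, 344.9 and 550.4 in GFP-TTP-AA. The 3 conditions overlapped widely, because replicate 3 was high in each of them. At a given replicate number GFP-TTP-AA was highest and GFP-TTP lowest. The log2 difference of GFP-TTP-AA against GFP-TTP was 0.57 (SE 0.22, interval 0.13 to 1.01, unadjusted p = 0.0105, adjusted p = 0.0821), or 1.49-fold. Against GFP the log2 difference was 0.41 for GFP-TTP-AA (interval -0.03 to 0.85, adjusted p = 0.401) and -0.16 for GFP-TTP (interval -0.60 to 0.28, adjusted p = 0.863).

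Casp8 encodes the initiator caspase of the death receptor pathway and had the highest footprint level per length among the 8 genes. Its normalised fitted values were 682.6, 701.4 and 668.9 in GFP, 601.3, 618.8 and 589.4 in GFP-TTP, and 695.2, 707.9 and 675.7 in GFP-TTP-AA. The level was lowest in GFP-TTP, and those of GFP and GFP-TTP-AA were close to each other. The log2 difference was -0.18 for GFP-TTP against GFP (interval -0.47 to 0.11, adjusted p = 0.717), 0.02 for GFP-TTP-AA against GFP (interval -0.27 to 0.31, adjusted p = 0.988) and 0.20 for GFP-TTP-AA against GFP-TTP (interval -0.09 to 0.49, adjusted p = 0.458). The interval for GFP-TTP-AA against GFP spans folds of 0.828 to 1.24.

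Casp8 and Cflar lie side by side on chromosome 1, on the plus strand (chr1:58795374-58847503 and chr1:58711508-58758884). They are 36489 nt apart with 0 protein-coding genes between them. Most of their neighbours had the opposite sign in the comparisons with GFP-TTP. Within 1 Mb of Casp8, 14 of 18 tested genes had positive differences in GFP-TTP against GFP (median 0.12). In GFP-TTP-AA against GFP-TTP 13 of 19 had negative ones (median -0.11). Cflar is among the 18 and the 19 genes, but not among the 14 or the 13. Casp8 and Cflar themselves were negative in the former comparison and positive in the latter. In GFP-TTP-AA against GFP, where both were positive, 9 of 19 neighbours of Casp8 were positive as well.

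Because the coding sequences of Casp8 (1503 nt) and Cflar (1455 nt) are of almost equal length, their footprints were also set against each other per kb of coding sequence. The level per kb of Casp8 over that of Cflar was 2.33 with GFP, 2.29 with GFP-TTP and 1.77 with the mutant. In single libraries this ratio was 3.09, 2.61 and 1.56 in GFP, 3.05, 2.57 and 1.54 in GFP-TTP, and 2.35, 1.99 and 1.19 in GFP-TTP-AA. The fitted value per kb of Casp8 was the higher of the pair in all 9 libraries, which follows from the fitted terms and is not 9 separate observations. The ratio varied more between the replicate numbers of a condition than between conditions, and its difference between conditions was not tested.

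Fadd, the adaptor that joins caspase-8 to death receptors (chr7:144577318-144582463, minus strand), had the lowest fitted mean of the 8 genes. Its normalised fitted values were 76.7, 79.5 and 71.0 in GFP, 71.3, 74.0 and 66.0 in GFP-TTP, and 95.7, 98.3 and 87.9 in GFP-TTP-AA. The level was highest in GFP-TTP-AA and lowest in GFP-TTP. The log2 difference of GFP-TTP-AA was 0.42 against GFP-TTP (interval -0.01 to 0.85, adjusted p = 0.246) and 0.31 against GFP (interval -0.12 to 0.74, adjusted p = 0.579). For GFP-TTP against GFP it was -0.10 (interval -0.54 to 0.33, adjusted p = 0.922). Exons of Fadd share 239 bases with the antisense gene Faddos. The strand setting of the counting is not given in the sources used here, so that reads in these bases cannot be assigned to either gene.

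**Figure D3:**
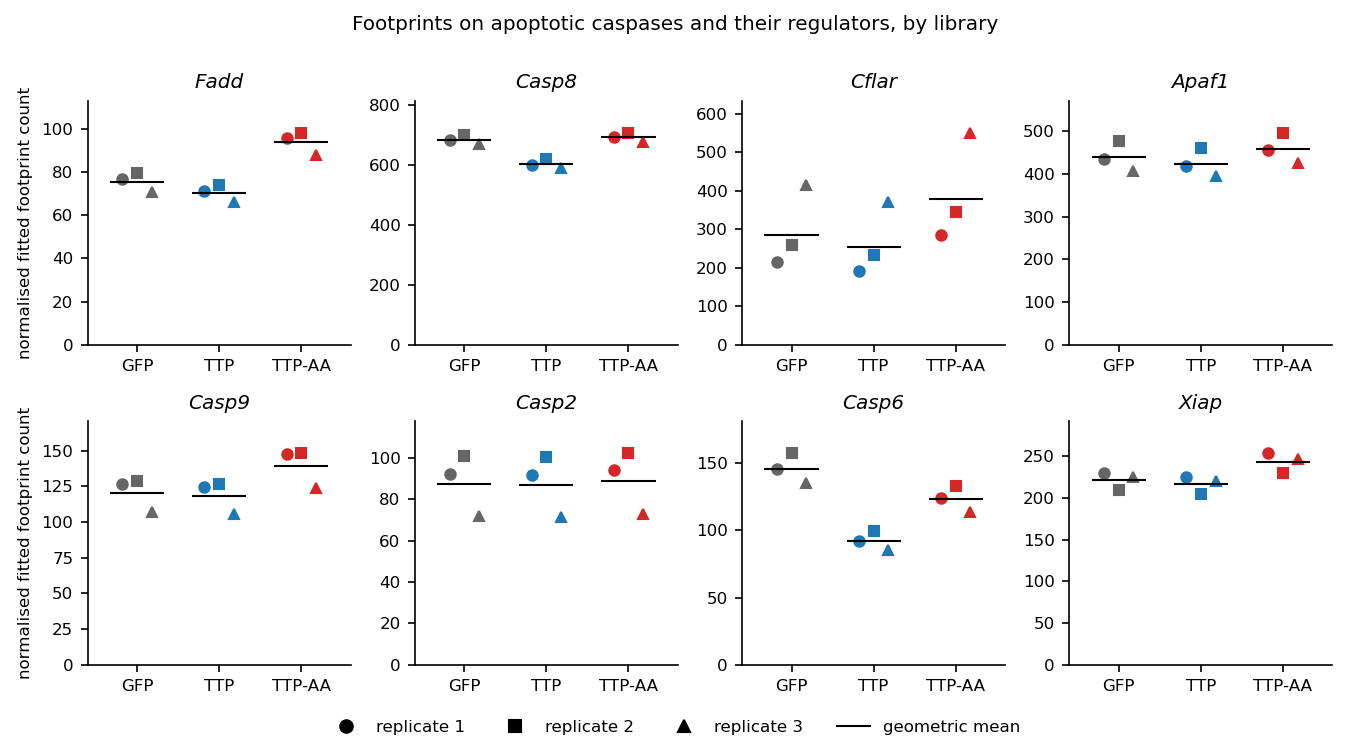
Normalised fitted footprint counts (y axis, linear from 0) of the 8 genes in the 9 libraries, by condition, with replicate numbers as symbols and the geometric mean of each condition as a line. Casp6 is lowest in the GFP-TTP libraries (85.4 to 99.7), and replicate 3 of Cflar is high in each condition (370.5 to 550.4). The values are fitted means, so that the scatter within a condition shows the replicate term of the model and not an error.

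The genes of the apoptosome had log2 differences between -0.05 and 0.23, none of them called. Apaf1, its scaffold (chr10:90989311-91082770, minus strand), had normalised fitted values of 434.0, 476.4 and 407.6 in GFP, 419.6, 461.3 and 394.1 in GFP-TTP, and 456.2, 496.2 and 424.9 in GFP-TTP-AA. The 3 conditions overlapped. Its log2 difference was -0.05 for GFP-TTP against GFP (interval -0.34 to 0.24), 0.06 for GFP-TTP-AA against GFP (interval -0.22 to 0.35) and 0.11 for GFP-TTP-AA against GFP-TTP (interval -0.18 to 0.40), with adjusted p-values of 0.953, 0.933 and 0.721. The 476 tested genes of chromosome 10 had a median of -0.12 in GFP-TTP against GFP, and with this subtracted Apaf1 was at 0.07. In GFP-TTP-AA against GFP-TTP the chromosome median was 0.16 and Apaf1 relative to it -0.05, so that the sign of both differences turned.

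Casp9, the initiator caspase that the apoptosome activates (chr4:141793612-141815976, plus strand), had normalised fitted values of 126.7, 128.6 and 107.3 in GFP, 124.6, 126.7 and 105.5 in GFP-TTP, and 147.4, 148.3 and 123.8 in GFP-TTP-AA. GFP and GFP-TTP were almost the same, and replicate 3 of GFP-TTP-AA lay within their range. The log2 difference was -0.02 for GFP-TTP against GFP (interval -0.42 to 0.37, adjusted p = 0.98). For GFP-TTP-AA it was 0.21 against GFP (interval -0.18 to 0.60, adjusted p = 0.724) and 0.23 against GFP-TTP (interval -0.16 to 0.62, adjusted p = 0.536). Casp9 and Apaf1 each hold 1 TATTTAT in the 3′UTR. The exons of Casp9 share 94 bases each with Cela2a and Ctrc on the opposite strand.

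Casp2, an initiator caspase that is activated on a platform of Pidd1 and Cradd (chr6:42264985-42282508, plus strand), showed the smallest differences of the 8 genes in all but 1 comparison. Its normalised fitted values were 92.1, 100.9 and 71.9 in GFP, 91.7, 100.6 and 71.6 in GFP-TTP, and 94.3, 102.3 and 73.0 in GFP-TTP-AA. The conditions overlapped almost fully, and replicate 3 was the lowest in each. The log2 differences were -0.01 for GFP-TTP against GFP (interval -0.42 to 0.41), 0.02 for GFP-TTP-AA against GFP (interval -0.39 to 0.44) and 0.03 for GFP-TTP-AA against GFP-TTP (interval -0.39 to 0.45), with adjusted p-values of 0.999, 0.989 and 0.951. Subtraction of the median of chromosome 6 turned the sign of the first to 0.05 and of the last to -0.01.

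Xiap, the inhibitor of active caspases (chrX:42059679-42109656, plus strand), had normalised fitted values of 229.3, 209.1 and 225.2 in GFP, 224.4, 205.0 and 220.5 in GFP-TTP, and 253.6, 229.2 and 247.1 in GFP-TTP-AA. The level was highest in GFP-TTP-AA. The lowest library of GFP-TTP-AA lay within the range of GFP, which follows from the replicate term and adds no evidence. The log2 difference was -0.03 for GFP-TTP against GFP (interval -0.38 to 0.32, adjusted p = 0.978), 0.14 for GFP-TTP-AA against GFP (interval -0.21 to 0.48, adjusted p = 0.825) and 0.17 for GFP-TTP-AA against GFP-TTP (interval -0.18 to 0.51, adjusted p = 0.638).

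Levels per kb of coding sequence, which allow genes to be compared, placed Casp8 first in each condition, at 455 with GFP, 401 with GFP-TTP and 461 with the mutant. Cflar followed at 196, 175 and 260 per kb in the same order. In GFP the order went on with Casp6 (175), Xiap (148), Fadd (122), Apaf1 (117), Casp9 (88.3) and Casp2 (64.3). In GFP-TTP Casp6 was at 111, behind Xiap (145), Fadd (114) and Apaf1 (113), and in GFP-TTP-AA it was at 148, behind Xiap (163) and Fadd (152). The initiator caspase of the receptor pathway therefore had several times the footprints per length of the initiator of the mitochondrial pathway in each condition. Differences between genes in this order were not tested, and neighbours such as Fadd and Apaf1 were close.

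Replicate numbers stood for the library date in the authors' model, and the dates are not given. The values given here are those of the GFP libraries, since the model keeps nearly the same ratios in every condition. For Cflar the replicate numbers differed more than for nearly all other genes. The SD over the 3 numbers was 0.49 on the log2 scale, larger than for 98.2% of the 10103 genes, whose median was 0.15. Replicate 3 of Cflar was 0.81 above the mean of replicates 1 and 2. Casp2 moved the other way, with replicate 3 lower by a log2 difference of -0.42, and Casp8, the neighbour of Cflar, hardly moved, with an SD of 0.03. The other 5 genes had SDs of 0.07 (Xiap) to 0.15 (Casp9). What the replicate numbers stand for in these genes was not tested.

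**Figure D4:**
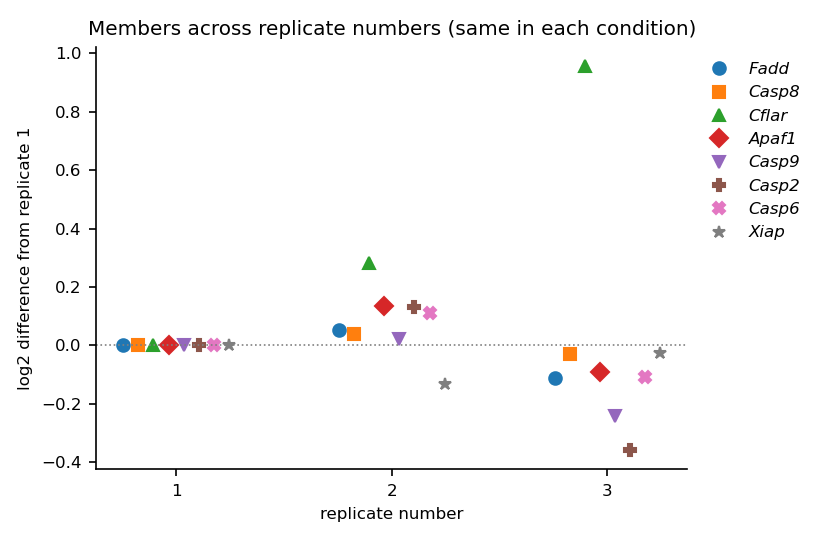
Log2 difference of each replicate number from replicate 1 (y axis) for the 8 genes in the GFP libraries, shown as 1 symbol each. Cflar in replicate 3 stands apart at 0.96, and Casp2 is the lowest at -0.36.

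The other genes of the pathway were described from 4 lists of 31 genes, of which 29 were listed and 28 were above the filter (Tnfsf10 was below it). In GFP-TTP against GFP 0 of 28 were called, in GFP-TTP-AA against GFP 1 was higher and 0 lower, and in GFP-TTP-AA against GFP-TTP 5 were higher and 2 lower. Their median log2 differences were -0.02, 0.07 and 0.04. At an adjusted p below 0.05, 7 of 28 genes in the last comparison stand beside 10.3% of all genes. The lists were chosen with earlier results of these data known, so that setting these shares side by side is not a test. The paper had already reported higher translation of Tnfrsf1a, Bak1 and Fas in this comparison.

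Among 10 genes of the receptor arm 3 were called higher in GFP-TTP-AA against GFP-TTP, where 10.3% of all tested genes were called in either direction. Of the 10 genes 5 had positive and 5 negative differences, with a median of 0.08. Tnfrsf1a, the main TNF receptor, was higher by 0.84 (SE 0.15, adjusted p = 2.45e-06), Cradd, which links caspase-2 to Pidd1, by 0.69 (SE 0.24, adjusted p = 0.0452), and Fas by 0.65 (SE 0.21, adjusted p = 0.0288). Fas also rose in GFP-TTP-AA against GFP, by 0.82 (SE 0.21, adjusted p = 0.0092). The 2 most abundant genes of the arm were not called in GFP-TTP-AA against GFP-TTP, with -0.12 for the cytokine Tnf (adjusted p = 0.838) and 0.36 for the kinase Ripk1 (adjusted p = 0.0941). Fadd and Casp8, which act downstream of these receptors, had 0.42 and 0.20.

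Among 6 IAPs and antagonists 1 was called in GFP-TTP-AA against GFP-TTP, while 2 of the 6 had positive and 4 negative differences (median -0.19). Birc3 (cIAP2), a ubiquitin ligase of the TNF receptor complex, rose by 0.80 (SE 0.21, adjusted p = 0.00273), beside 0.17 for its relative Xiap. The most abundant genes of this list were Birc6, with -0.33 (adjusted p = 0.0752), and Htra2, with -0.18 (adjusted p = 0.492). Of 6 genes of the mitochondria and apoptosome, Bak1, which permeabilizes the outer mitochondrial membrane, rose by 0.51 (SE 0.15, adjusted p = 0.0144), while Bax, which has the same role, was at 0.0046 (SE 0.14, adjusted p = 0.99). All 6 had positive differences, with a median of 0.07, and Bak1 was the only 1 called.

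Of 6 caspase substrates and nucleases 2 fell in GFP-TTP-AA against GFP-TTP, 3 of the 6 had positive and 3 negative differences, and the median was -0.0051, beside -0.0050 over all tested genes. Parp1, a DNA repair enzyme that caspases cleave, fell by 0.46 (SE 0.13, adjusted p = 0.00498), and Aifm1, a mitochondrial protein that can move to the nucleus in cell death, fell by 0.58 (SE 0.17, adjusted p = 0.00986).

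**Figure D5:**
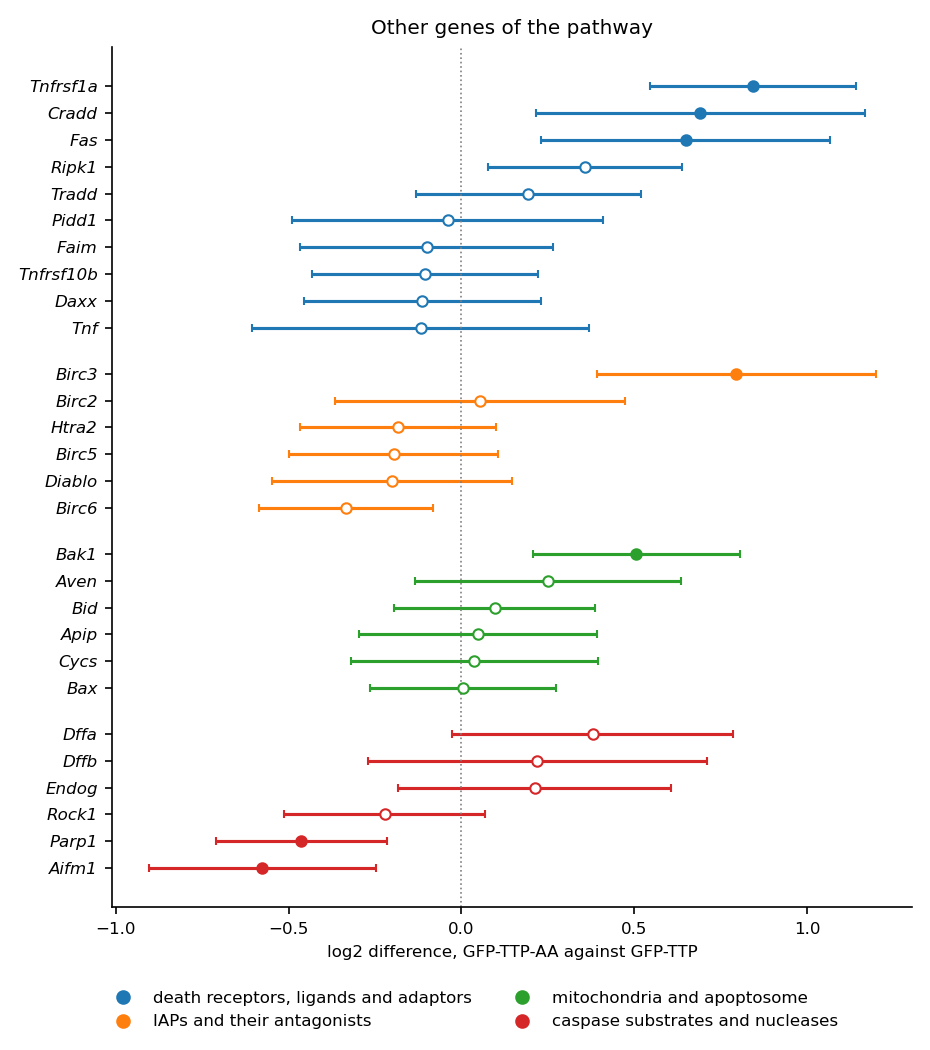
Log2 differences between GFP-TTP-AA and GFP-TTP (x axis) for the 28 other genes of the pathway, grouped by list and colour, with 95% intervals as bars and filled points for an adjusted p below 0.05. Tnfrsf1a (0.84) is the highest and Aifm1 (-0.58) the lowest of the 7 filled points.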

How the data were processed

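Ribosome-protected fragments were isolated with the ARTseq kit, depleted of rRNA and sequenced in 9 libraries, 3 per condition. Per the submitters' processing notes the authors used Trim Galore, TopHat2 (2.0.12), HTSeq and DESeq2 (1.6.3) on GRCm38 (mm10). They kept up to 2 alignments per read, so that footprints on close paralogs or pseudogenes can be shared, and the strand setting of the counting is not given in the sources used here. The authors' deposited table of normalized counts holds a signal, namely the mean fitted by their model, with terms for library date and condition, multiplied by the library's size factor. This was checked on its values: after terms for condition and replicate number 0 genes had a log2 residual above 1e-12, and there were 0 zeros. The table has 16932 lines, of which 11 are repeated and 1 has no gene name. From the deposited comparison tables only the standard error of the log2 difference was used, which the rule for these genes names as their error. The same tables hold the authors' fold changes, statistics and p-values, which were not used.

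Size factors were recovered as medians of ratios over all genes of the table. Only genes whose fitted mean reached 10 were tested. Log2 differences of levels, without a pseudocount, were divided by the deposited standard error and tested with a two-sided Wald test (normal reference) and the Benjamini-Hochberg method within each comparison, with a threshold of 0.05. Precision is therefore limited by the authors' standard errors, which reached 0.25, and observed counts per library were not analysed here. The sources do not say whether the 3 libraries of a condition came from separate cultures, so the p-values may measure technical spread only, and they do not cover differences between separately derived lines. The genes named were the 8 genes, every gene of the 4 pathway lists past the threshold and the 2 with the highest mean in each list, the 3 genes closest in pattern to a called gene, and Zfp36. The genes and lists were chosen with earlier results of these data known. One further list is not reported here. 3′UTRs and positions were taken from GENCODE vM21. Matched RNASeq was not analysed here, so that footprints are not separated into mRNA amount and translation. Python 3.11.15, numpy 2.4.6, pandas 2.3.3, scipy 1.17.1, pysam 0.24.0 and matplotlib 3.10.9 were used.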

Additional observations from a re-analysis of the deposited data

How the results depend on the processing

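A t reference with 4 degrees of freedom called 0 genes in each comparison, so that the count of called genes in GFP-TTP against GFP went from 1 to 0. Casp6 had an adjusted p of 0.925 under it. Its call therefore depends on the normal reference, as do the calls of all other genes. Over the other 6 tested alternatives and 3 comparisons 17 of 18 counts of called genes did not change. The exception was GFP-TTP against GFP with the median of the same chromosome subtracted, where the count was 0, Casp6 was at -0.48 (adjusted p = 0.303) and 165 genes of all were called in place of 208. The adjusted p of Casp6 ranged from 0.0239 to 0.303 over these 6. Of the 144 tested differences of single genes under them 139 kept their direction and side of the threshold, and the 48 with a pseudocount, which have no test, kept their direction and moved by less than 1 SE. Subtraction of the chromosome median turned Casp2 to 0.047 and Apaf1 to 0.070 in GFP-TTP against GFP, and Casp2 to -0.0060 and Apaf1 to -0.051 in GFP-TTP-AA against GFP-TTP, with adjusted p-values of 0.899 to 0.995. The other alternatives were no filter or a fitted mean of at least 50, adjustment over the 3 comparisons together, subtraction of the median of all tested genes, pseudocounts of 1 and 10, and, chosen after seeing the data, size factors from the kept genes. No paired analysis was possible because the deposited values are fitted means that already hold the replicate number as a term and leave no residual, and for the same reason leaving out replicates in turn and a fit without the replicate block were not run. Because the observed counts were not analysed, depth enters only through the standard errors.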
